A study of Mus musculus with 8 samples.

Results

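Nestin, the intermediate filament protein by which neural stem and progenitor cells are usually recognised, gave a lower signal in the brains of fasted mice than in those of fed mice, and it stood alone in this among 9 markers of neural progenitors and of neurogenesis. The 9 genes were Nes, Vim, Sox2, Sox11, Hes5, Eomes, Neurod1, Dcx and Mki67. They were taken by symbol, with every probe that the array design assigns to them: 15 probes among 39429, of which 12 were well above background on at least 4 of the 8 arrays. All 9 genes kept at least 1 such probe, out of 15995 genes measured in this way. The genes had been chosen with the fasted and fed values of these arrays known, so that comparison describes them and supports nothing; whether a gene passed the threshold set over all genes is stated for orientation only.

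Mice were fasted or fed for 17 h, and RNA from the dissected brain was labelled with Cy3 and hybridised to 8 single-colour Agilent expression arrays, 4 from fasted and 4 from fed mice. Strain, sex, age and the part of the brain taken were not given in the sources used here, and neither was whether each array holds RNA of a separate mouse. A p-value therefore speaks of the scatter among these arrays only, part of which may be technical. Values are log2 signals relative to the 75th percentile of the same array, so a negative value means dimmer than that percentile, and a difference is fasted minus fed with its standard error (SE). A level can be compared between arrays for 1 probe, but not between probes.

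On each array 62.3 to 69.0% of the probes were well above background and none was saturated; the number of arrays limits the precision. Replicates 1 and 2 of both groups lay on slide 1, and replicates 3 and 4 on slide 2. Fasted samples occupied positions 1 and 3 of a slide and fed samples positions 2 and 4, so fasting and position cannot be told apart. Markers of mature neurons, astrocytes and oligodendrocytes were all measured (7 of 7, 8 of 8 and 6 of 6 genes). Gabra6 and Cbln3, which mark cerebellar granule cells, were well above background on 0 of 8 arrays, whereas the other 6 of the 8 listed genes of these cells were measured. Fed replicate 4 and fasted replicate 3 stood apart from the other arrays in genes of the olfactory bulb, and results that rest on them are given with and without them.

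Neurogenesis in the adult mouse brain continues in the subventricular zone, from which neuroblasts migrate to the olfactory bulb, and in the dentate gyrus of the hippocampus. Radial glia-like stem cells carry the filament proteins nestin and vimentin and the transcription factor Sox2, and Notch signalling holds them undifferentiated through repressors such as Hes5. Their dividing progeny express the proliferation antigen Ki-67 and, in the glutamatergic lineage, Eomes and then Neurod1, while young neurons express Sox11 and doublecortin. Several of the 9 genes are also active elsewhere in the adult brain: nestin and vimentin in vessel walls, Sox2, vimentin and Hes5 in astrocytes, and Eomes in projection neurons of the olfactory bulb. In RNA from a whole tissue, fewer cells of a type and less RNA per cell cannot be told apart.

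The probes behind the 4 genes described most closely are shown by the first 30 of their 60 bases, 5′ to 3′, as the deposited annotation gives them. For Eomes and Dcx all probes are shown, because probes of the same gene differed in whether they were well above background.
Nes probe A_55_P1953728: tcatcatctcagcctgctgagatcttgttt
Sox2 probe A_52_P307739: tggcaatcaaatgtccattgtttataagct
Eomes probe A_55_P2150717: gctatgaagaacgagtgcccggtgctatta
Eomes probe A_55_P2184434: tcataagtcatttttaataaatgtggttca
Dcx probe A_52_P244349: ataaaaagaaaagcaaaacagagatgtgcg
Dcx probe A_52_P506493: tcccatgttgtcccaagtattcatttaaga
Dcx probe A_55_P2080126: aactcaacatgaattgatgacaacttggtg
In mm9, the build named in the file headers, the Nes probe lies at chr3:87784303-87784362 and the Sox2 probe at chr3:34550773-34550832, both on the plus strand. The Eomes probes lie on the plus strand at chr9:118394425-118394484 and, 764 bases further on, at chr9:118395189-118395248. The Dcx probes lie on the minus strand at chrX:140290854-140290913, chrX:140295893-140295952 and chrX:140296337-140296396, so the first is 5.04 and 5.48 kb from the others. The exon or untranslated region under each probe was not analysed here.

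Of the 9 genes, 1 passed the array-wide threshold between fasted and fed brain (limma, Benjamini-Hochberg adjusted p under 0.05) and 8 did not. The gene was Nes, which was lower in fasted brain; 0 of the 9 were past it in the higher direction. Over all 15995 genes 18.4% passed, 9.44% higher and 8.96% lower in fasted brain, and since the genes were selected on this contrast nothing is read from their count. In 7 of the 9 genes the difference was under 0.2 on the log2 scale in either direction. The median difference over the 9 genes was -0.06, against -0.01 over all genes.

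Nes showed the clearest separation. Its values were -1.69, -1.55, -1.65 and -1.66 in fasted replicates 1 to 4 and -0.88, -0.91, -0.89 and -1.01 in fed replicates 1 to 4. Every fasted array lay below every fed array, and the gap between the groups was far wider than either group. The group means were -1.64 ± 0.06 (SD, n = 4) and -0.92 ± 0.06 (SD, n = 4), a difference of -0.72 ± 0.05 (SE), or 1.64-fold lower in fasted brain. Ranked from the most negative difference, Nes stood 49th of 15995 genes, a position that describes the gene and tests nothing. Before scaling, its intensities were 570 to 611 in fasted and 885 to 912 in fed brain.

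The Nes difference was alike on both slides, -0.73 on slide 1 and -0.70 on slide 2. Without fasted replicate 3 and fed replicate 4 it was -0.74. Over 20 alternative ways of processing the arrays it ranged from -0.75 to -0.60 and kept its sign in all of them. Changing the filter, adding a block or averaging probes could not move it. Nes has a single kept probe, and the groups are balanced over slides and replicate numbers. The deposited series table holds the same values up to a constant for each probe, so it too could hardly differ. Nestin is also made in blood vessels, and the 8 endothelial markers had a mean deviation from their average of -0.09 to -0.01 in the fasted and 0.01 to 0.07 in the fed arrays. Of these 8 genes 1 rose and 2 fell (37.5%, against 18.4% of all genes). The transporter Slco1a4 rose (0.50 ± 0.04, limma adjusted p = 0.000967). The adhesion protein Cdh5 (-0.26 ± 0.05, limma adjusted p = 0.0177, and 0.0543 with median scaling) and the angiopoietin receptor Tek (-0.58 ± 0.13, adjusted p = 0.0191) fell. Tek did not pass without fasted replicate 1 (adjusted p = 0.0547), fasted replicate 2 (0.0510) or fed replicate 2 (0.0511). Without fasted replicate 3 and fed replicate 4 together the limma adjusted p of Tek was 0.0812. Vessel walls also hold mural cells. Of their 6 measured markers 2 rose, Pdgfrb (0.18 ± 0.04, limma adjusted p = 0.0317) and Abcc9 (0.26 ± 0.07, 0.0378), and 1 fell, Acta2 (-0.25 ± 0.06, 0.0313). Each of these 3 lost its call in 6 or 7 of the 8 fits with 1 array left out (limma adjusted p up to 0.0952). Without fasted replicate 3 and fed replicate 4 together, Pdgfrb (limma adjusted p = 0.0725), Abcc9 (0.0744) and Acta2 (0.105) did not pass. The mean deviation of the mural list was -0.10 to 0.17 in the fasted and -0.06 to 0.04 in the fed arrays. The part of endothelial and mural cells in the Nes difference was not tested.

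**Figure D1:**
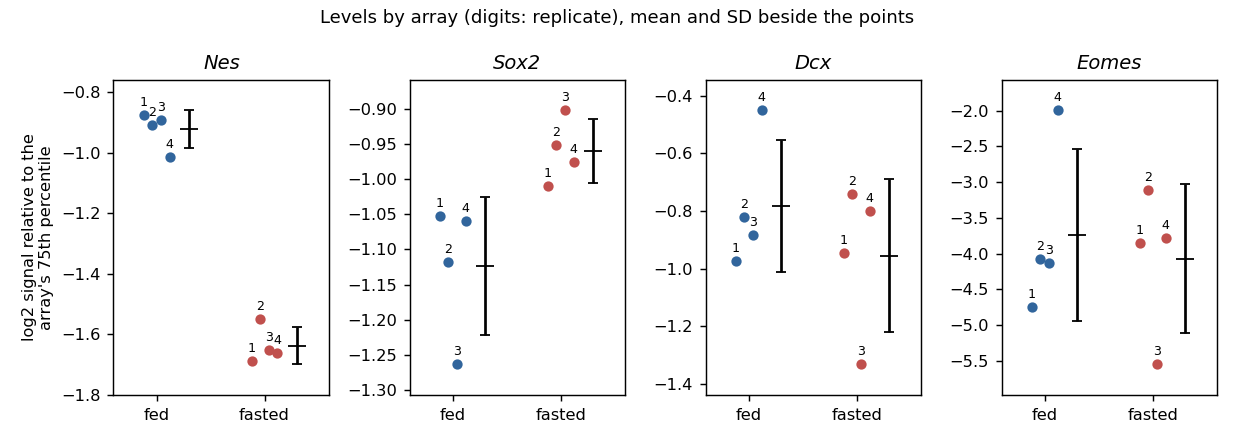
Log2 signal relative to the 75th percentile of the array (vertical axis) for Nes, Sox2, Dcx and Eomes in fed (blue) and fasted (red) brain; each point is 1 array, labelled with its replicate number, and the bar beside it is the mean with its SD (n = 4), on an axis of its own for each gene. The groups are apart for Nes (-1.64 against -0.92) and Sox2 (-0.96 against -1.12), while Dcx and Eomes overlap and have their highest value on fed replicate 4 and their lowest on fasted replicate 3.

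Vimentin, the filament protein with which nestin assembles, did not share the separation. Vim was 0.59, 0.63, 0.74 and 0.76 in fasted replicates 1 to 4 and 0.70, 0.60, 0.71 and 0.98 in fed replicates 1 to 4. The groups overlapped, with the highest value on fed replicate 4. The difference was -0.06 ± 0.08, and without fed replicate 4 it was 0.01.

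Sox2, the transcription factor that maintains stem cells and is also present in adult astrocytes, was the other gene whose groups did not overlap. Its values were -1.01, -0.95, -0.90 and -0.98 in fasted replicates 1 to 4 and -1.05, -1.12, -1.26 and -1.06 in fed replicates 1 to 4. All 4 fasted arrays were above all 4 fed arrays, the opposite direction to Nes, but the closest pair, fasted replicate 1 and fed replicate 1, were near each other. Fasted minus fed came to 0.16 ± 0.05 (0.10 within slide 1, 0.22 within slide 2). The mean deviation of the 8 astrocyte markers was 0.00 to 0.03 in the fasted and -0.04 to 0.01 in the fed arrays, and their part in the Sox2 values was not tested. The Sox2 difference was positive under all 20 alternatives and passed the array-wide threshold under 0 of them. As for Nes, the filters, the blocks, probe averaging and the series table could not move the difference itself. Groups without overlap were seen in 2 of the 9 genes, Nes and Sox2, and in 26.9% of all genes.

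Hes5, a repressor induced by Notch, was 2.60, 2.18, 2.61 and 2.21 in fasted replicates 1 to 4 and 2.17, 2.41, 1.96 and 2.40 in fed replicates 1 to 4. The arrays of each group fell into a higher and a lower pair, and the groups overlapped. The pairs followed the position on the slide. The higher pair lay at position 1 in fasted and position 4 in fed samples, the lower at positions 3 and 2. The part of position in the Hes5 values was not tested. The difference between fasted and fed was 0.17 ± 0.14.

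Mki67 encodes Ki-67, present in dividing cells. Its brighter probe gave -3.41, -3.38, -3.49 and -3.23 in fasted replicates 1 to 4 and -3.31, -3.36, -3.40 and -3.37 in fed replicates 1 to 4. All 8 arrays lay within 0.26 of each other on the log2 scale, and the difference was -0.02 ± 0.06. A further probe, 3.17 kb away, was also well above background on 8 of 8 arrays and gave -0.01 ± 0.11.

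Eomes, also called Tbr2, marks intermediate progenitors. Its detected probe gave -3.85, -3.11, -5.55 and -3.78 in fasted replicates 1 to 4 and -4.75, -4.07, -4.14 and -1.99 in fed replicates 1 to 4. It was well above background on 7 of 8 arrays; fasted replicate 3, the lowest, was the exception. Before scaling, the intensity was 449 on fed replicate 4, the highest array, and 41.0 on fasted replicate 3; no fold is given, since the latter was not well above background. The groups overlapped, and the difference of -0.33 ± 0.69 was smaller than its SE. It was 0.93 on slide 1 and -1.60 on slide 2, and 0.74 without fasted replicate 3 and fed replicate 4. The SD within groups was 1.12 for Eomes, the 21st highest of 15995 genes, against a median of 0.07 over all genes, and takes in that dim value as it was measured. The other Eomes probe was well above background on 0 of 8 arrays.

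Neurod1, a basic helix-loop-helix factor that follows Eomes in newborn excitatory neurons, was -2.11, -2.10, -2.43 and -2.23 in fasted replicates 1 to 4 and -2.14, -1.96, -2.40 and -2.28 in fed replicates 1 to 4. In both groups the arrays of slide 2 were lower than those of slide 1. The difference between fasted and fed was -0.02 ± 0.11, and a probe 688 bases away gave 0.06 ± 0.05.

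Sox11, a transcription factor of immature neurons, was -1.18, -1.27, -1.31 and -1.36 in fasted replicates 1 to 4 and -1.22, -1.31, -1.18 and -1.15 in fed replicates 1 to 4. The groups overlapped and fasted minus fed came to -0.06 ± 0.05 (0.04 within slide 1, -0.16 within slide 2). A probe 546 bases away gave 0.00 ± 0.05.

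Dcx encodes doublecortin, a microtubule-associated protein of migrating young neurons. The probe detected on 8 of 8 arrays gave -0.95, -0.74, -1.33 and -0.80 in fasted replicates 1 to 4 and -0.97, -0.82, -0.89 and -0.45 in fed replicates 1 to 4. As for Eomes, fasted replicate 3 was the lowest array and fed replicate 4 the highest, and the other 6 arrays overlapped. The difference was -0.17 ± 0.15, and without those 2 arrays it was 0.06. The other Dcx probes were well above background on 0 and 3 arrays.

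**Figure D2:**
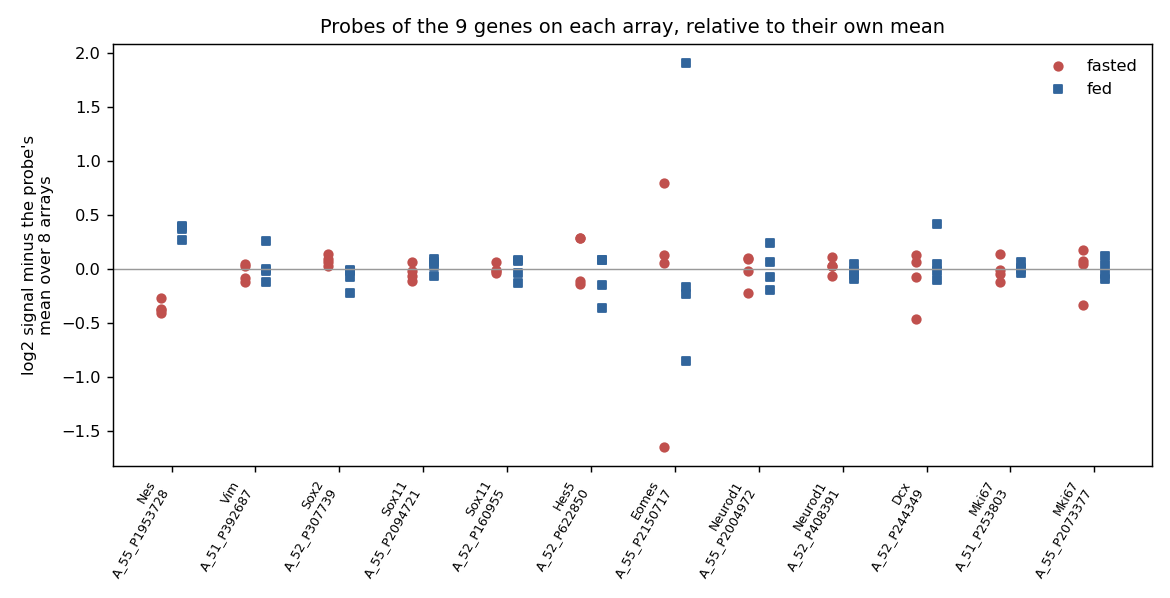
Log2 signal of each of the 12 kept probes on each array minus the mean of that probe over the 8 arrays (vertical axis), with fasted arrays as red circles and fed arrays as blue squares. The groups are widely apart for Nes alone, while the Dcx values span 0.88 on the log2 scale and the Eomes values more, down to fasted replicate 3, where Eomes was not well above background.

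A comparison that the choice of genes did not use is that between the slides. Between slides 0.744% of all genes differed (limma with group in the model, adjusted p under 0.05), and 0 of the 9 genes did. At an unadjusted p under 0.05 the counts were 2 of the 9 and 2147 of all genes. The pair were Neurod1, lower on slide 2 by -0.26 ± 0.06 (limma adjusted p = 0.144), and Vim, higher on slide 2 by 0.17 ± 0.06 (adjusted p = 0.293). The other kept Neurod1 probe had the opposite sign, 0.09 ± 0.04 (adjusted p = 0.380).

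Eomes and Dcx varied from array to array together with genes of the olfactory bulb. Of 7 listed bulb genes 6 were measured: Doc2g, Cdhr1, Th, Sp8, Synpr and Meis2. Doc2g, which encodes a C2 domain protein and is expressed in bulb projection neurons, was -1.43, -0.92, -2.60 and -1.56 in fasted replicates 1 to 4 and -1.82, -1.19, -1.27 and 0.22 in fed replicates 1 to 4. Fed replicate 4 was the highest array for 6 of the 6 bulb genes and fasted replicate 3 the lowest for 4 of them. The mean deviation of the 6 genes was -0.09, 0.20, -0.60 and -0.05 in fasted replicates 1 to 4 and -0.36, -0.08, 0.01 and 0.96 in fed replicates 1 to 4. Among the bulb genes 0 passed between fasted and fed brain, with adjusted p of 0.423 for Doc2g (limma; log2 difference -0.61 ± 0.48) and 0.489 for Cdhr1 (-0.46 ± 0.42).

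The level of each of the 9 genes was correlated with this mean deviation over the 8 arrays. Levels were not centred within groups, and the permutations ran across groups and slides. Differences between fasted and fed brain, known when the genes were chosen, therefore enter r, rho and the permutation p-values, which serve as a description. For Eomes, Pearson's r was 0.969 (exact permutation test, two-sided, p = 0.000942, adjusted over 9 relations 0.00424) and Spearman's rho was 0.833 (exact p = 0.0154, adjusted 0.0692). For Dcx, r was 0.933 (exact permutation p = 0.000645, adjusted 0.00424) and rho was 0.929 (exact p = 0.00223, adjusted 0.0201). Without fasted replicate 3 and fed replicate 4, the arrays farthest from the median of the bulb genes, r was 0.918 for Eomes and 0.808 for Dcx over the remaining 6 arrays. The rank correlation of Eomes did not pass after adjustment. For the other 7 genes r lay between -0.23 and 0.61 and none passed; Vim had the highest of these, 0.614, which was -0.18 without the 2 arrays. For Nes r was 0.250 (exact permutation p = 0.622). Each slide holds 4 arrays, too few for a correlation within a slide.

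**Figure D3:**
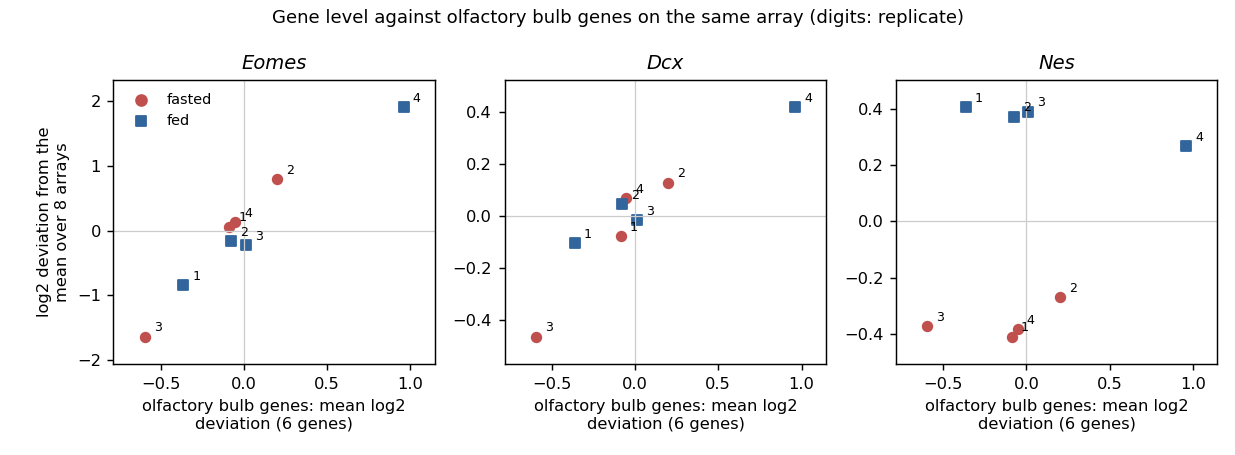
Log2 deviation of Eomes, Dcx and Nes from their mean over 8 arrays (vertical axes) against the mean log2 deviation of 6 olfactory bulb genes on the same array (horizontal axes); red circles are fasted and blue squares fed arrays, with their replicate numbers. Eomes (r = 0.969) and Dcx (r = 0.933) climb with the bulb genes from fasted replicate 3 to fed replicate 4, while Nes splits by group at any level of the bulb genes.

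Beyond the bulb genes, each of the 9 genes was set beside 252 genes of the lists described below and their markers, by the correlation of deviations from the group means over the 8 arrays. Doc2g was the most alike for both Eomes (r = 0.995) and Dcx (r = 0.954). The most alike for Nes was Sox10, a factor of the oligodendrocyte lineage (r = 0.892), for Sox2 the collagen Col3a1 (r = 0.898) and for Hes5 the replication clamp Pcna (r = 0.946). The others were Robo2 for Vim (r = 0.905), Cdkn1a for Sox11 (r = 0.896), Slco1a4 for Neurod1 (r = 0.916) and Tek for Mki67 (r = 0.976). These are the highest of many values over few arrays and serve as a description.

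Around the 9 genes, 207 further genes of neurogenesis were listed by function in 9 lists, and 176 of them were measured. Of these 15 rose and 15 fell with fasting and 146 did not pass, so that 17.0% were called, against 18.4% of all genes. The lists were drawn up with earlier results of these data known, so their counts are a description only. Each count below is to be read beside the 18.4%, and a call refers to the brightest kept probe of a gene. The median difference of the 176 genes was 0.01. With any 1 of the 8 arrays left out, 20 of the 30 called genes still passed. The other 10 lost their call without at least 1 array: Egfr, Fabp7, Jag1, Ccne1 and Foxm1 in 7 of the 8 such fits, Bdnf, Egf and Lrp8 in 6, Cxcl12 in 5 and Id4 in 2, with adjusted p up to 0.114 (limma). For Id4 the arrays were fed replicates 2 (adjusted p = 0.0583) and 3 (0.0523). The single array whose absence left a call was fed replicate 3 for Egfr, fed replicate 4 for Fabp7, fed replicate 1 for Jag1 and Foxm1, and fasted replicate 4 for Ccne1. Within a single slide, with 2 arrays a group, none of the 30 passed. Without fasted replicate 3 and fed replicate 4 together, 17 of the 30 still passed and 13 did not. Those 13 were Foxm1 (limma adjusted p = 0.186), Lrp8 (0.143), Egfr (0.123), Ccne1 (0.119), Jag1 (0.109), Bdnf (0.0854), Id4 (0.0721), Egf (0.0632) and Cxcl12 (0.0611), with Nr2e1 (0.0517), Lmna (0.0557), Btg2 (0.0526) and Bmp4 (0.0725).

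Other markers of neural stem cells and radial glia passed in both directions. Of 21 measured genes 3 rose and 5 fell (38.1%, against 18.4% of all genes), and their median difference was -0.01. The membrane protein Prom1 rose 1.37-fold (0.46 ± 0.04, limma adjusted p = 0.000931) and the growth factor receptor Fgfr3 rose 1.48-fold (0.56 ± 0.06, adjusted p = 0.00161), as did the Sox2 relative Sox3 (1.24-fold). The homeodomain protein Hopx fell 1.39-fold (-0.48 ± 0.05, adjusted p = 0.00151) and the endothelin receptor Ednrb 1.48-fold. The nuclear receptor Nr2e1, or Tlx, fell 1.15-fold and the receptor Egfr 1.11-fold; Nr2e1 did not pass without fasted replicate 3 and fed replicate 4 together (limma adjusted p = 0.0517). Fabp7, a brain fatty acid binding protein of radial glia, was at the threshold (-0.74 ± 0.21, adjusted p = 0.0497). Without fasted replicate 3 and fed replicate 4 its difference was -0.44 (adjusted p = 0.0208). Aqp4 and Slc1a2, called among 8 astrocyte markers, went opposite ways (-0.41 ± 0.06 and 0.32 ± 0.08), and Slc1a2 lost its call in 6 of the 8 fits with 1 array left out (limma adjusted p up to 0.0775), and without fasted replicate 3 and fed replicate 4 together (0.105).

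In the Notch pathway and its Hes, Hey and Id factors, 3 of 25 measured genes rose and 1 fell, with a median of 0.00. Heyl, a Notch-induced repressor, rose 1.54-fold (0.62 ± 0.07, limma adjusted p = 0.00261). Id2, an inhibitor of basic helix-loop-helix factors, rose 1.23-fold (0.30 ± 0.05, adjusted p = 0.0102) and the Notch ligand Jag1 1.19-fold. Id4 fell (-0.21 ± 0.05, adjusted p = 0.0215); with the replicate block it did not pass (0.0609), nor did Jag1 (0.0532). The 3 Notch receptors and the mediator Rbpj were in the list and were not called on the brightest kept probe of each gene. For Notch2 that probe gave -0.02, whereas its other kept probe gave -0.39 (limma adjusted p = 0.0192).

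The relatives of individual members are to be read beside the 18.4% called over all genes. Among 13 other Sox genes 1 rose, Sox3 (0.31 ± 0.06, limma adjusted p = 0.0116), and Sox17 gave -0.25 ± 0.09 (adjusted p = 0.0954). Among 12 other intermediate filament genes 1 rose, the lamin gene Lmna (0.16 ± 0.03, adjusted p = 0.0144), which did not pass without fasted replicate 3 and fed replicate 4 together (0.0557). Synm, the filament protein synemin, gave 0.12 ± 0.04 (adjusted p = 0.0565). It passed without fed replicate 3 (0.0470).

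Genes of committed progenitors and young neurons were for the most part not called. Of 16 proneural and intermediate progenitor genes 1 rose, the antiproliferative gene Btg2, by 1.62-fold (0.70 ± 0.14, limma adjusted p = 0.0140); without fasted replicate 3 and fed replicate 4 it did not pass (0.53, adjusted p = 0.0526). Tbr1, the T-box factor that follows Eomes in cortical neurons, gave 0.10 ± 0.03 (adjusted p = 0.0807), and the mean of its probes gave 0.26 (0.00378). Of 29 genes of immature neurons 1 fell, the tubulin gene Tubb2b, by 1.39-fold (-0.47 ± 0.04, limma adjusted p = 0.00112). These counts rest on the brightest kept probe of each gene. For Dpysl5 that probe gave 0.06, but its other kept probe gave -0.56 (limma adjusted p = 0.00514). For Dclk1 it gave 0.08, and the 3 other kept probes ranged from -0.25 to 0.02 (lowest limma adjusted p = 0.0268). Stmn1, a microtubule destabiliser, gave -0.11 ± 0.03 (adjusted p = 0.0531), and the mean of its probes gave -0.13 (0.0164).

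Of 42 cell cycle genes 28 were measured. Those at 0 of 8 arrays well above background included Top2a, Cdk1, Ccnb1, Aurkb and Bub1, genes of S phase and mitosis, whereas both Mki67 probes were on 8 of 8. Among the 28 genes 1 rose and 3 fell. The B-type cyclin Ccnb2 fell 1.25-fold (-0.32 ± 0.04, limma adjusted p = 0.00243). The D-type cyclin Ccnd1 fell 1.17-fold (-0.23 ± 0.05, adjusted p = 0.0173; 0.0707 with normexp background correction). Foxm1, a driver of mitotic genes, gave -0.36 ± 0.10 (adjusted p = 0.0498) and the G1 cyclin Ccne1 0.18 ± 0.05 (0.0381). Ccne1 did not pass with normexp background correction (limma adjusted p = 0.133). Of 12 cell cycle inhibitors and exit genes 2 rose, Btg2 and Tob1 (1.26-fold, adjusted p = 0.00573), and 1 fell, the retinoblastoma relative Rbl1 (1.46-fold lower, adjusted p = 0.00264).

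Growth factors and receptors that act on neural stem cells had 5 genes higher and 4 lower of 26 measured. The hedgehog targets Gli1 and Ptch1 rose 2.27-fold (1.18 ± 0.09, limma adjusted p = 0.000791) and 1.32-fold (0.40 ± 0.06, adjusted p = 0.00452), while the ligand Shh was well above background on 0 of 8 arrays. Bmp4 (1.26-fold), the Wnt target Axin2 (0.26 ± 0.06) and Egf (1.25-fold) also rose. Bmp4 did not pass without fasted replicate 3 and fed replicate 4 together (adjusted p = 0.0725), nor did Axin2 with normexp background correction (0.148). With that correction Egf gave 0.09 and did not pass either (limma adjusted p = 0.371). The vascular growth factor Vegfa fell (-0.27 ± 0.04, adjusted p = 0.00545), although another of its probes gave 0.05. The neurotrophin Bdnf (1.23-fold), the chemokine Cxcl12 (1.33-fold; adjusted p = 0.0705 with the replicate block) and the reelin receptor gene Lrp8 fell too. Lrp8 probes differed in sign, -0.15 and 0.22, and the gene did not pass with normexp (limma adjusted p = 0.0755).

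**Figure D4:**
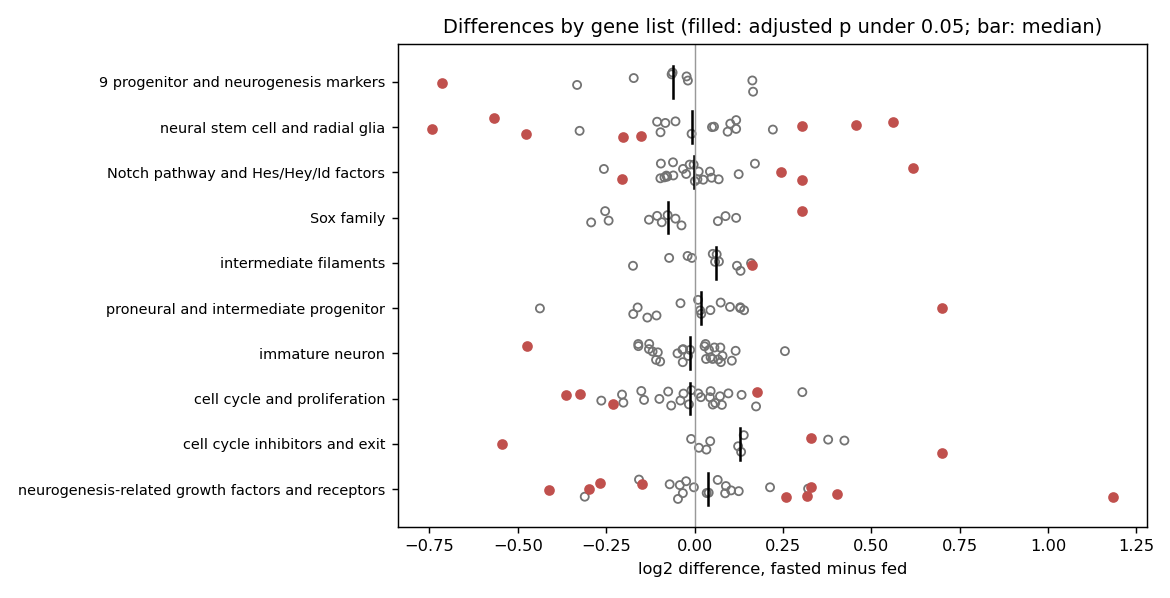
Log2 difference, fasted minus fed (horizontal axis), of the 9 markers in the top row and of each measured gene of the 9 lists below; filled points passed the array-wide threshold (limma, adjusted p under 0.05), open points did not, and the bar is the median of the row. Nes lies far to the left of the other 8 markers, and the list medians lie between -0.08 and 0.13.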

How the data were processed

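The deposited scanner files hold an intensity per spot; per the file headers they were made with Agilent Feature Extraction 11.0.1.1 on a design annotated to mm9, while the submitters' processing notes name version 10.10.1.1. The series table, also deposited, holds a ratio for each spot. Compared with the scanner values, it is the signal over the array's 75th percentile divided by a constant for each probe (spread over arrays 0.000179 on the log2 scale). Its scale, centring and direction follow from this, but the baseline behind the constant stays unknown; its column medians were 0.970, 0.993, 0.973 and 0.987 for fasted and 0.987, 1.02, 0.991 and 1.02 for fed replicates, and it served as an alternative only.

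From the scanner files, control and outlier spots were left out, 399 probes with several spots were averaged, and log2 signals were taken relative to each array's 75th percentile. Probes well above background on at least 4 of 8 arrays were kept (26066). They were fitted with limma 3.58.1 (R 4.3.3) with Benjamini-Hochberg adjustment over all kept probes, after the code was tested on simulated data. A gene takes its brightest kept probe, and counts cover the 15995 genes with a RefSeq symbol (GRCm38.p6). Of all 39429 probes, kept or not, 27427 were matched to a symbol by their accession. The 4271 kept probes without a RefSeq symbol entered the fit only.

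Sample titles gave the group and replicate number of each array. Deviations of same-numbered fasted and fed arrays correlated at 0.18 to 0.29, over 0.1 in every pair. The numbers were therefore used as pairs, but only in the alternative called the replicate block. The main fit and its p-values and SEs were unpaired. Other-numbered arrays of the same slide correlated at 0.05 to 0.27 and those of different slides at -0.39 to -0.10, so number and slide are not separated by this check. The members and the gene lists were chosen with earlier results of these data known. The rule named up to 3 called genes of each list by smallest p, or the best 2, and the listed gene most like each member; called genes of the neurogenesis lists beyond it were named after their values were seen. One result under this rule is not reported here. Alternatives changed background correction, scaling, filter, probe choice, blocks, slides and arrays left out; the fit without fasted replicate 3 and fed replicate 4 was added after seeing the data.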

Additional observations from a re-analysis of the deposited data

How the results depend on the processing

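The markers were chosen on this contrast, so their counts describe and support nothing. Of the 9 markers 1, Nes, passed under every alternative except those within slide 1 and within slide 2, where 0 passed (unadjusted p under 0.05: 1 and 2 markers). Within either slide 0 listed genes (unadjusted 41 and 31) and 0 of all genes (unadjusted 3699 and 2470) passed by limma, with 2 arrays a group. Listed genes otherwise ranged from 20 to 38 against 30, and with 1 array left out from 22 to 26. Over all genes the count of 2943 was 1730 with no filter on dim probes and 1821 without fasted replicate 3 and fed replicate 4, a choice made after seeing the data; with 1 array left out it was 1861 to 2543 (1861 without fasted replicate 1). Median scaling gave 58.8% of calls higher, against 51.3%. With the replicate block 2558 genes, 34 listed genes and 1 marker passed, and beyond the calls named above Egfr (adjusted p = 0.0559) and Lrp8 (0.0937) were lost. Of 179 marker differences 174 moved by less than the replicate spread. The 174 include those under filters, blocks and the series table, which could not move a difference. Probe averaging could not do so either for genes with a single kept probe. The 5 that moved more were Nes with normexp (-0.60) and Sox11 (0.04, -0.16) and Eomes (0.93, -1.60) within slides. Eomes has no value when all 8 arrays must be above background. The causes were not tested. Signal over background limits Eomes, which was dim on 1 array, and the probes of Eomes and Dcx that were left out.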

Other observations

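Markers of other cell types were read beside the neurogenesis genes, and their counts beside the 18.4% called over all genes. Of 6 microglia markers 4 fell and 0 rose, among them Tmem119 (-0.42 ± 0.05, limma adjusted p = 0.00185) and Aif1 (-0.54 ± 0.10, adjusted p = 0.0132), and their mean deviation was -0.26 to -0.04 in the fasted and 0.09 to 0.23 in the fed arrays. The other microglia calls, P2ry12 and Csf1r, were lost in 6 and 7 of the 8 fits with 1 array left out. Among oligodendrocyte markers Mag (-0.27 ± 0.04, limma adjusted p = 0.00631) and Cnp (-0.14 ± 0.04, adjusted p = 0.0498) fell. Of 6 oligodendrocyte precursor markers 1 rose, Pdgfra (0.25 ± 0.04, limma adjusted p = 0.00456), and 0 fell, with a median difference of -0.02. The precursor marker Olig1 gave -0.17 (limma adjusted p = 0.0856, and 0.0488 with the replicate block). Of 6 ependymal markers, which mark the ventricular lining, 0 rose and 2 fell: Rarres2 fell (-0.25 ± 0.04, adjusted p = 0.00828) and so did Ccdc153 (-0.16 ± 0.04, adjusted p = 0.0333; 0.0653 with the replicate block), while Foxj1 gave -0.13, Dynlrb2 0.06, Tmem212 0.04 and Rsph1 0.02. With 1 array left out, Cnp lost its call in 7 of 8 fits (adjusted p up to 0.118) and Ccdc153 in 6 (up to 0.0823). Without fasted replicate 3 and fed replicate 4 together, Cnp (0.0684), Ccdc153 (0.0528), P2ry12 (0.124) and Csf1r (0.0536) did not pass. None of 7 mature neuron, 4 dentate granule cell or 5 choroid plexus markers passed.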
